A study of Caenorhabditis elegans with 2 samples.

Results

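The genes described here encode the precursors of the short signalling peptides of Caenorhabditis elegans. They are the 140 protein-coding genes whose symbols start with flp- (FMRFamide-like peptides, 31 genes), nlp- (neuropeptide-like proteins, 71 genes) or ins- (insulin-like peptides, 38 genes), of 19973 protein-coding genes annotated on the chromosomes of assembly WBcel235. Membership followed the name prefix. Binding of the large RNA polymerase II subunit AMA-1 was measured by chromatin immunoprecipitation followed by sequencing in late embryos of the wild-type strain N2. Both samples, biological replicates 1 and 2, form 1 group of whole animals of both sexes together. Their age in hours is recorded as unknown, and there is no second condition. The peak lists give a score per peak and no read counts, so depth is unknown, and no control list was analysed here.

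Peptide precursors enter the secretory pathway, are cut at pairs of basic residues and are stored in dense core vesicles, from which neurons, gut and epidermis release the mature peptides. FLP and NLP peptides mostly act on G protein-coupled receptors. Insulin-like peptides act on the receptor tyrosine kinase DAF-2, and through it on the FOXO factor DAF-16, in growth, dauer formation and lifespan. Many of these genes are known to be active in a few cells each. In whole embryos, few cells with much polymerase on a gene and many cells with little of it cannot be told apart.

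The annotated proteins held the features looked for under the flp and ins names, apart from 2 flp genes that lacked the motif counted. No feature was set for the nlp name, so the 71 nlp genes rest on the name alone. Of the 31 flp genes, 29 encode at least 1 Arg-Phe-Gly stretch followed by a basic residue, the end of an amidated FMRFamide-like peptide, with 9 such stretches in flp-13. The 2 without it were flp-21 and flp-33. An Arg-Phe-Gly stretch at the very end of a protein was not counted, so these 2 are not shown to be misnamed. None of the 71 nlp and none of the 38 ins proteins held it. A glycine followed by 2 basic residues was found in 27 of 31 flp, 24 of 71 nlp and 9 of 38 ins proteins. All 38 ins proteins had at least 6 cysteines, which form the disulphide bonds of the insulin fold, and none of the 31 flp or 71 nlp proteins did. The precursors were short, with a median of 95 residues for flp, 88 for nlp and 103 for ins.

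A gene was given the highest peak with its summit inside the gene or no more than 500 bp outside either end. Peaks were ranked within each list by the authors' signal score, with rank 1 the highest. The scores of the 3 lists span different ranges, so across lists the ranks are compared. The relaxed lists, which hold peaks together with background regions, have 30000 peaks each, for replicate 1, replicate 2 and the pooled alignments. The list thresholded by the irreproducible discovery rate (IDR) has 476 peaks, which are the 476 highest of the pooled list.

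Peptide genes were seldom at high AMA-1 peaks. Among the 5000 highest pooled peaks, 12 of the 140 genes had a summit (8.57%, exact Clopper-Pearson 95% interval 4.51 to 14.5, counting error only), against 17.8% of all protein-coding genes. They were 3 of the 31 flp genes (flp-12, flp-14, flp-19), 5 of the 71 nlp genes (nlp-4, nlp-26, nlp-29, nlp-34, nlp-40) and 4 of the 38 ins genes (ins-2, ins-3, ins-10, ins-36). In the IDR list the count was 1 of 140, nlp-4 (0.714%), against 2.44% of all genes. No flp gene and no ins gene was there, and the exact upper limits for 0 of 31 and 0 of 38 are 11.2% and 9.25% (a limit of 3 counts gives 9.68% and 7.89%).

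Each replicate alone gave similar counts. In replicate 1, 11 peptide genes (7.86%) had a summit among its 5000 highest peaks, where all genes had 18%. In replicate 2 there were 10 (7.14%) against 18.2%. The genes were largely not shared: 3 of 140 were in both sets, nlp-4, ins-36 and flp-19 (2.14%), while 9.39% of all genes were. Over the whole pooled list, 52 peptide genes (37.1%) had a summit of any rank, against 49.6% of all genes. The corresponding shares were 42 genes (30.0%) against 46.6% in replicate 1 and 68 genes (48.6%) against 61.3% in replicate 2. In all 3 lists together, 30 genes (21.4%) had a summit, against 38.0% of all genes.

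**Figure D1:**
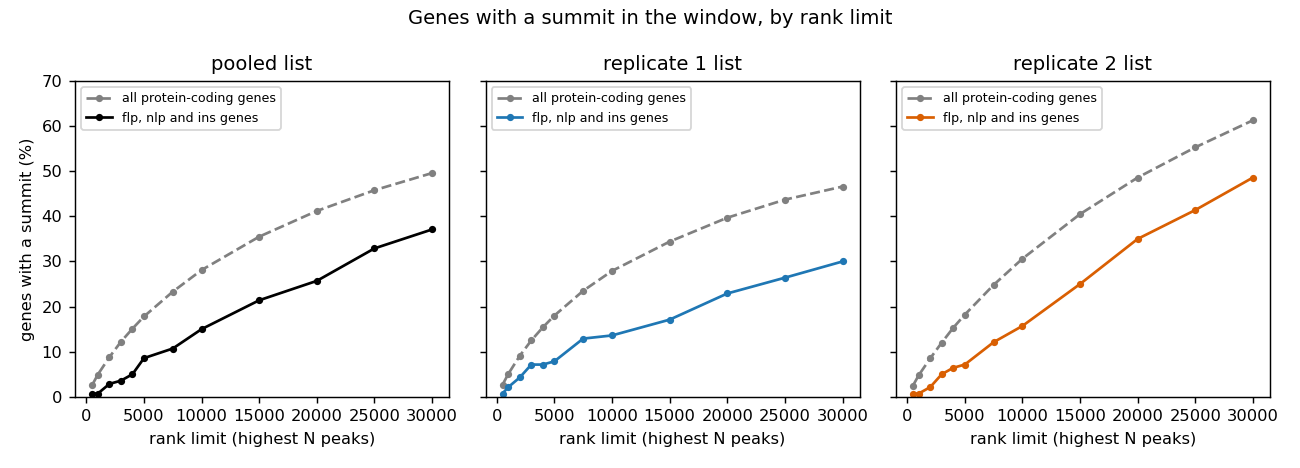
Share of genes (y axis, percent) with a summit in their window, for rising rank limits (x axis), in the pooled list, replicate 1 and replicate 2. Lines are all 140 peptide genes and all 19973 protein-coding genes. In the pooled list the line of all 140 peptide genes lies below that of all genes, at 8.57% against 17.8% for the 5000 highest peaks and 37.1% against 49.6% for the whole list.

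Among genes that did have a pooled summit, that summit also stood lower. The median rank was 12199 over the 52 peptide genes, with a range of 36 to 26741, and 8223 over all protein-coding genes with a summit. In replicate 1 the medians were 12063 and 7417, and in replicate 2 they were 14661 and 10002. Each gene is ranked by the highest of its summits, and a longer gene can hold more of them. Length was not matched in these ranks. By family, nlp genes most often had a pooled summit, 32 of 71 (45.1%), followed by 10 of 31 flp genes (32.3%) and 10 of 38 ins genes (26.3%). The exact intervals of these shares were 33.2 to 57.3%, 16.7 to 51.4% and 13.4 to 43.1%, and they overlap.

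Peptide genes are short, which narrows the window a summit can fall in. Their median length was 888.0 bp (quartiles 581.2 and 1516), against 2027 bp for all protein-coding genes. The merged windows of the 140 genes covered 334.3 kb and held 79 pooled summits, 0.236 per kb, where the windows of all genes held 0.354 per kb. Of the 5000 highest peaks, 12 summits fell in them, 0.0359 per kb against 0.0608. Densities were 0.194 against 0.356 per kb in replicate 1, and 0.326 against 0.338 per kb in replicate 2. The gap in density was thus wider in replicate 1 than in replicate 2. Within length classes the shares differed in direction. Of genes up to 700 bp, 14 of 51 peptide genes (27.5%) and 30.9% of all genes had a pooled summit. From 701 to 1500 bp it was 23 of 54 (42.6%) against 36.3%, and from 1501 bp on 15 of 35 (42.9%) against 57.5%. Among the 5000 highest peaks the peptide genes' share was lower in all 3 classes. It was 4 of 51 (7.84%) against 11.4%, 5 of 54 (9.26%) against 12.3% and 3 of 35 (8.57%) against 20.8%. These counts are few and no interval was computed for them, so they do not show that the difference holds at matched length.

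The 1 peptide gene at an IDR peak was nlp-4 (WBGene00003742, chromosome I, 10517321 to 10518055, minus strand), an nlp gene of 735 bp. Its peak, at 10516778 to 10517127, had a score of 121 at rank 36 in the pooled list. The score was 95.3 (rank 45) in replicate 1 and 26.7 (rank 54) in replicate 2. Both replicates thus placed it among their highest peaks. The summit lay 368 bp beyond the end of nlp-4 and 25 bp beyond the small nucleolar RNA gene F59C6.15, so it was counted for nlp-4 only through the 500 bp flank. An ncRNA gene, F59C6.19, is annotated there too. Of the 31-base words in the peak, 75.9% occurred once in the genome, the lowest share among the peaks of the 52 genes, whose median was 100%.

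Insulin-like genes had 1 further locus high in both replicates. ins-36 (WBGene00002119, chromosome I, 11212307 to 11215094, minus strand) held 3 pooled summits in its window, the highest with a score of 36.9 at rank 1283. That summit lay in coding sequence, 105 bp before the end of the gene. Its highest peak had a score of 38.4 (rank 527) in replicate 1 and 13.3 (rank 1200) in replicate 2. These 2 peaks were at different places, 136 bp beyond the end and 777 bp before it. Within 200 bp of the pooled summit the replicates had peaks at ranks 2001 and 1818. The gene was therefore high in both replicates, with several summits along its 2788 bp.

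The other ins genes were less even. ins-10 (chromosome V, 14033949 to 14034396) had a pooled score of 26.1 (rank 4113), with 22.5 (rank 2949) in replicate 1 and 6.41 (rank 15029) in replicate 2. Its pooled summit lay in coding sequence, 74 bp after the start, and 300 bp beyond the end of its neighbour vps-39. ins-2 and ins-3, convergent neighbours on chromosome II, shared 1 pooled summit in the gap between their ends, 369 and 304 bp beyond them, with a score of 25.3 at rank 4503. In replicate 1 the same locus had 24.1 (rank 2405). Replicate 2 had no summit within 200 bp of it, and the nearest in each window were at ranks 18769 and 26236, upstream of the starts. ins-34 had its pooled summit at rank 8586, 15 bp beyond its end in the 3' UTR of nkcc-1, with ranks 13445 and 7576 in the replicates. Below it came ins-17 at 10408, 160 bp from the end of the ribosomal protein gene rps-1, and ins-37 at 10997. ins-13, at rank 20071 in the pooled list, had a rank of 5976 in replicate 2 and none in replicate 1, beside the spliced leader gene sls-2.3. The first genes by symbol with no summit in any list were ins-4, ins-5 and ins-7.

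Among the flp genes, flp-19 (WBGene00001462, chromosome X, 10604686 to 10605831, plus strand) ranked highest. Its score was 33.3 (rank 1790) in the pooled list, 31.6 (rank 999) in replicate 1 and 11.3 (rank 2384) in replicate 2. All of these summits fell in the last 154 bp of the gene. It is the 1 flp gene among the 5000 highest of both replicates. The pooled summit was in its 3' UTR and also within the window of abl-1, a tyrosine kinase gene that runs towards it and ends 126 bp away. flp-12 (chromosome X, 4591281 to 4592350, minus strand) had a score of 30.4 (rank 2491), with 18.6 (rank 4955) and 8.53 (rank 6723) in the replicates. No other protein-coding window held that summit, which lay 296 bp after the start in an exon outside the coding sequence. flp-14 (chromosome III, 12910510 to 12914783) had 27.7 (rank 3456), then 18.3 (rank 5184) and 6.01 (rank 17236). Its summits were 11 to 21 bp before the gene's end, in the 3' UTR. Below these, flp-15 had a pooled rank of 9263, with 15359 in replicate 1 and 2595 in replicate 2, at a place 1483 bp into the gene. flp-27 had 15729, 26109 and 5046 and flp-34 had 21899, 20870 and 11187. Replicate 2 ranked these 3 genes higher than replicate 1 did. flp-2, with 12671, 17144 and 28673, went the other way. flp-1, flp-4 and flp-5 had no summit in any list.

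After nlp-4, the next nlp gene by pooled rank was nlp-26. It (WBGene00003764, chromosome V, 19613461 to 19614534, plus strand) had a score of 38.8 (rank 1082) in the pooled list, 26.9 (rank 1684) in replicate 1 and 7.56 (rank 9773) in replicate 2. The summits of all 3 lists lay within 2 bp of each other in an intron, 276 bp beyond the end of the neighbouring gene Y43F8C.3. nlp-40, an intestinal peptide gene needed for the defecation rhythm, is near the left tip of chromosome I (11495 to 16837). It had scores of 26.1 (rank 4106), 16.2 (rank 7156) and 12.6 (rank 1524), with the pooled summit 165 bp beyond its end. That summit was also in the window of rcor-1, a corepressor gene, 482 bp beyond the end of rcor-1. Further nlp summits beyond a gene's end were those of nlp-33 (rank 5840), nlp-31 (rank 7189), nlp-36 (rank 7646, in coding sequence of the aspartyl-tRNA synthetase gene dars-1) and nlp-78 (rank 9131). nlp-45 had its summit inside coding sequence at rank 9157, and it lies in an intron of T01B6.1. nlp-3, nlp-5 and nlp-7 had no summit in any list.

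A run of 6 nlp genes on chromosome V, nlp-34, nlp-31, nlp-30, nlp-29, nlp-28 and nlp-27, lies between 3978825 and 3989770. nlp-29 and nlp-31 are known as antimicrobial peptide genes of the epidermis, induced by fungal infection and, for nlp-29, by wounding. Their proteins are rich in glycine and tyrosine. This stretch with 500 bp on either side (11.9 kb) held 9 pooled summits, or 0.753 per kb, 10 summits of replicate 1 and 3 of replicate 2. nlp-29 (WBGene00003767, 3984425 to 3984847, plus strand) had a score of 27.3 (rank 3609) in the pooled list, 26.0 (rank 1886) in replicate 1 and 6.32 (rank 15436) in replicate 2. nlp-34 had 25.8 (rank 4272), 26.0 (rank 1885) and 4.64 (rank 27483). Its pooled summit lay 455 bp beyond its end, in coding sequence of the chemoreceptor gene str-83. nlp-30 had 24.4 (rank 5005), just outside the 5000 highest, with 23.5 (rank 2590) in replicate 1 and no summit in replicate 2. Just inside that limit were ins-2 and ins-3 at rank 4503. nlp-31 had no summit in replicate 2 either, and its rank in replicate 1 was 6007. Replicate 2 had its highest summit of the cluster at nlp-27, at rank 5117, where the other lists had none. The highest summits of the cluster thus ranked higher in replicate 1 than in replicate 2.

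**Figure D2:**
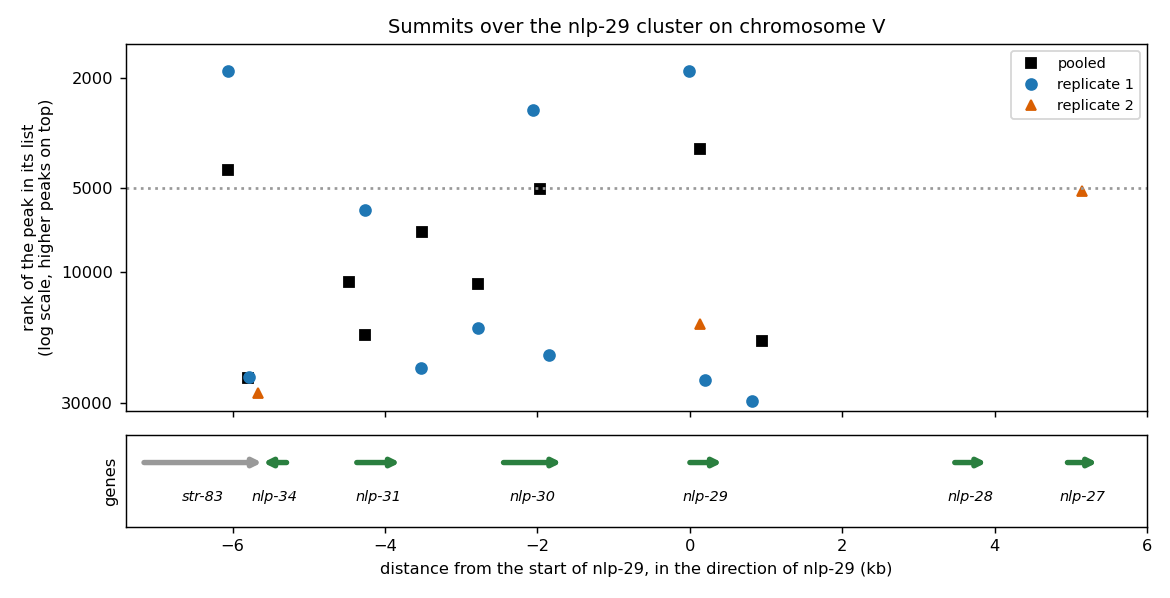
Summits of the pooled list, replicate 1 and replicate 2 over the cluster (x axis, distance from the start of nlp-29 in kb; y axis, rank of the peak on a log scale with higher peaks on top; arrows, genes in their direction, peptide genes in green). Replicate 1 has 10 summits, the highest at rank 1885, and replicate 2 has 3, the highest at rank 5117 over nlp-27.

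The residue content set apart 11 genes, nlp-24 to nlp-34, with 33.3 to 56.0% glycine and tyrosine, against 1.23 to 19.4% in the other 129 proteins. This grouping was made after the values were seen. Of the 11 genes, 3 (27.3%) had a summit among the 5000 highest pooled peaks and 7 (63.6%) in the whole pooled list. Of the other 129 genes, 9 (6.98%) and 45 (34.9%) did. In replicate 1, 4 of the 11 genes (36.4%) and 7 of the 129 (5.43%) were among the 5000 highest. In replicate 2 the counts were 0 of 11 and 10 of 129 (7.75%). All protein-coding genes had 17.8%, 18% and 18.2% in these 3 lists. At any rank, 6 of the 11 (54.5%) had a summit in replicate 1 and 6 (54.5%) in replicate 2, against 36 (27.9%) and 62 (48.1%) of the 129.

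Replicate 2 had high summits at other nlp genes. nlp-56 was at rank 2974 there, 179 bp upstream of the start, and at 13585 in the pooled list and 28705 in replicate 1. nlp-76 was at 2985 and nlp-46 at 3091, against pooled ranks of 13709 and 15887. nlp-76 had no summit in replicate 1, and nlp-46 had one at rank 11231. nlp-68 (3997) and nlp-13 (4055), named here after their values were seen, had none in replicate 1 either. In all, 38 peptide genes (27.1%) had a summit in replicate 2 and none in replicate 1, against 22.1% of all genes. The reverse held for 12 (8.57%) against 7.37%. No summit in any list was found for 59 peptide genes (42.1%), against 30.6% of all genes. By family these were 14 flp (45.2%), 24 nlp (33.8%) and 21 ins genes (55.3%).

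Few peptide genes had a high summit at their own annotated start, which was not checked against sites of initiation. Among the 5000 highest pooled peaks, 2 of the 140 genes had a summit within 250 bp of the start, nlp-29 and ins-10 (1.43%), against 5.09% of all genes. The 12 genes among the 5000 highest had their top summit within 250 bp of the start in 2 cases, within 250 bp of the end in 4, deeper inside in 2 and more than 250 bp downstream in 4. Over all genes with such a summit the shares were 20.3%, 27.3%, 31.3% and 14.9%. Over all 52 genes with a pooled summit, 14 (26.9%) had it near the start only and 17 (32.7%) near the end only, against 19.3% and 22.5% of all genes. A further 10 (19.2%) had it deeper inside, against 38.9%, and 8 (15.4%) more than 250 bp beyond the end, against 12.8%. Peptide genes are shorter (median 888.0 bp against 2027 bp), which leaves less room deeper inside. Length was not matched in these position shares. By annotated part, 17 summits (32.7%) were beyond the end, 12 (23.1%) in coding sequence, 9 (17.3%) in introns and 6 (11.5%) in 3' UTRs, where all genes had 28%, 29.8%, 20.3% and 4.76%. At the edge of the window, nlp-34 at 455 bp and flp-27 at 486 bp beyond the end were the last genes counted. With 1000 bp on either side, 15 in place of 12 genes were among the 5000 highest.

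The sequences under the pooled summits within 250 bp of a start are shown for 5 of the genes named by rank, because there the peak lies on the gene's promoter side or first coding bases, together with that of nlp-26, the highest after nlp-4. Each runs up to 100 bases to either side of the pooled summit in the direction of the gene, ends at the first untranslated exon base, and was read from the RefSeq copy of WBcel235, the assembly that ce11 names. For nlp-29 (chrV:3984457-3984657, plus strand), ins-10 (chrV:14034008-14034123, plus strand), flp-15 (chrIII:13667692-13667803, minus strand) and nlp-46 (chrV:12506104-12506250, minus strand) capitals mark the gene's own coding bases and lower case its introns. For nlp-26 (chrV:19614130-19614330, plus strand, intron) and nlp-56 (chrIV:14784829-14785029, minus strand, upstream) no base is coding and capitals mark the letters TATAAA.
nlp-29: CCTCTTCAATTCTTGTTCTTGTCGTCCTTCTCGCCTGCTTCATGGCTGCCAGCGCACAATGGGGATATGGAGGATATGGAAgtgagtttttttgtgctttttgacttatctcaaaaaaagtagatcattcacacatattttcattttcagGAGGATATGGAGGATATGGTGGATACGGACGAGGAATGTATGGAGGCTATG
ins-10: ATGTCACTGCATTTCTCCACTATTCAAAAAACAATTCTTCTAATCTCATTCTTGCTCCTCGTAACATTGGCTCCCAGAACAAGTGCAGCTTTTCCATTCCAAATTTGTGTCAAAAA
flp-15: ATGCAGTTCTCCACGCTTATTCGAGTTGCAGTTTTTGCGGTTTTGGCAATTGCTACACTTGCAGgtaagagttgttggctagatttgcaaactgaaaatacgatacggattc
nlp-46: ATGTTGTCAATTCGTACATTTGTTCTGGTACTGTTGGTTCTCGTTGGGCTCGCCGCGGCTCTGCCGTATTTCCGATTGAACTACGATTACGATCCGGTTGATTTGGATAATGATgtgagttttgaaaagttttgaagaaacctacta
nlp-26: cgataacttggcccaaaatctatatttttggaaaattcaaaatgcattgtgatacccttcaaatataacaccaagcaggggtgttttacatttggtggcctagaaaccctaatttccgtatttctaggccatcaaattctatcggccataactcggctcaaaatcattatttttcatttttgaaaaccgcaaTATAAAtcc
nlp-56: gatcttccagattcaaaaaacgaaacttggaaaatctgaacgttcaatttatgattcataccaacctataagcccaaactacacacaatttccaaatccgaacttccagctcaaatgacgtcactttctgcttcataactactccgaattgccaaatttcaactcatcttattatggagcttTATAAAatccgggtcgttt
In nlp-29, 132 of the 201 bases are coding, and the summit lies in the short intron between coding exons. In ins-10 all 116 bases are coding and begin at the start codon, as do those of flp-15 and nlp-46. In the 201 bases around the summit, TATAAA on either strand was found for 9 of the 51 different summits of peptide genes (17.6%), for 12.4% of the 5000 highest pooled peaks and for 14.8% of all pooled peaks. The median GC content there was 38.3% for peptide genes, 40.8% for the 5000 highest and 38.8% for all.

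Summits in compact gene regions often belong to several windows. The 52 genes had 51 different highest pooled summits. For 30 genes (57.7%) the summit also lay in the window of another protein-coding gene, against 51.7% of all genes with a summit. The gene's own start was the nearest protein-coding start for 44 (84.6%), against 61.6% of all genes. Of the 12 genes among the 5000 highest, 8 were left when each summit was given to the nearest start alone. The share of peptide genes thus fell from 8.57% to 5.71%, and that of all genes from 17.8% to 11.8%. An snRNA or snoRNA gene lay within 250 bp of the summit for 2 genes, nlp-4 and ins-13, and no miRNA or tRNA gene did for any of the 52. Genes annotated as ncRNA or piRNA were not in that count, such as T28H10.5 at nlp-46. The count was not made over all genes, so it cannot be called low or high. Without summits near a small RNA gene, 11 peptide genes (7.86%) and 17.3% of all genes were among the 5000 highest.

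The replicates' scores correlated less over peptide genes than over all genes with a summit in both. Their highest summits coincided at least as often. Over the 30 genes with a summit in both replicates, the scores had a Spearman rho of 0.0961 and a Pearson r of 0.379 on the log2 scale. Without nlp-4, the 29 others had −0.000739 and 0.0151, so the Pearson value rested on that gene. Over 7832 protein-coding genes the values were 0.382 and 0.452. These are descriptions over genes of the same 2 libraries, and genes are not replicates. No interval was computed, and 30 genes are few. The highest summits of both replicates lay within 200 bp of each other for 12 of the 30 (40.0%), against 27.1% of the 7832 genes. Peptide genes are shorter, which leaves less room for the 2 summits to lie apart, and length was not matched. Each of the 12 genes among the 5000 highest pooled peaks had a replicate 1 summit within 200 bp of the pooled one, and 9 (75.0%) had one in replicate 2. For all genes these shares were 97.5% and 75.6%.

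Peptide genes on chromosome V most often had a pooled summit. There 13 of 23 (56.5%) had a pooled summit, against 33.8% of all genes of that chromosome, and 4 (17.4%) were among the 5000 highest, against 10.8%. These 4 were nlp-26, nlp-29, nlp-34 and ins-10. The 13 include all 7 of the genes rich in glycine and tyrosine that had a pooled summit. On chromosome X, which holds 13 flp, 19 nlp and 2 ins genes, 9 of 34 (26.5%) had a pooled summit, against 45.9%. The pooled shares on chromosomes I, II, III and IV were 31.6%, 42.9%, 41.2% and 26.3%, against 64.4%, 49.5%, 68.4% and 48.8% of all genes. On chromosome IV none of the 19 was among the 5000 highest, against 17.8%.

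Of the 11 tandem groups, in which neighbours are no more than 10000 bp apart, the nlp-29 cluster held the most summits in the pooled list and in replicate 1. In replicate 2 it held 3, fewer than 5 of the other groups. The 7 ins genes from ins-28 to ins-26 on chromosome I, spread over 26.4 kb, had 3 pooled summits, the highest at rank 4615, all of them in the gaps between the genes' windows. Replicate 1 had 7 summits there and replicate 2 had 6. In replicate 2, 2 of them were in the window of ins-28, the higher at rank 7028, and in replicate 1, 1 was in that of ins-27, at rank 28155. The group from ins-2 to ins-20 on chromosome II (23.8 kb) had 1 pooled summit, 1 in replicate 1 and 6 in replicate 2. The nlp-45, nlp-22, nlp-23 and nlp-2 group on chromosome X (8.17 kb) had 4 pooled summits, 5 in replicate 1 and 7 in replicate 2, the highest there at rank 5234. nlp-25 and nlp-26 together (9.36 kb) had 4, 4 and 3, and flp-28, flp-3 and flp-2 (8.93 kb) had 3, 3 and 4. The groups of ins-21, ins-22 and ins-23 and of ins-7 and ins-8 had 0 summits in each of the 3 lists, gaps included.

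Genes that process and store the peptides, and genes of insulin signalling, included several at high peaks. Of 28 genes for precursor processing and dense core vesicles, 11 (39.3%) had a summit among the 5000 highest pooled peaks and 2 (7.14%) in the IDR list, where all genes had 17.8% and 2.44%. The 3 among the 1000 highest were aex-5, a proprotein convertase (rank 264, with 251 and 12321 in the replicates), unc-108, the Rab2 GTPase of vesicle maturation (334, with 489 and 988), and kpc-1, a furin-like convertase (764, with 340 and 4223). The aex-5 summit lay 124 bp after its start and also in the window of unc-54, the major body-wall myosin heavy chain. The kpc-1 summit was 162 bp beyond the end of the gene and also in the window of scrm-4. Of the 19 insulin signalling genes found of 20 listed, 11 (57.9%) were among the 5000 highest and 3 (15.8%) in the IDR list. Those at the top were the 14-3-3 genes par-5 (176, with 227 and 756) and ftt-2 (274, with 156 and 9904), the phosphatase subunit pptr-1 (219, with 213 and 2237) and daf-16, the FOXO factor (989, with 1336 and 686). The ftt-2 and pptr-1 summits were 140 and 196 bp beyond the genes' ends, the second also in the window of W08G11.3. That of par-5 was in its 3' UTR and that of daf-16 in an intron. These genes are longer, with medians of 5456 and 6643 bp, and of all genes from 1501 bp on 20.8% were among the 5000 highest. That class holds many genes shorter than these medians, since the upper quartile of all genes is 3636 bp, so length was not matched. Both lists were chosen with earlier results of these data known, and their difference from the peptide genes was not tested. Per kb of window they held 0.470 and 0.566 pooled summits, against 0.354 for all genes.

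Few receptor genes for the peptides were at high peaks. Of those listed, 2 (1.92%) were among the 5000 highest and 28 (26.9%) in the pooled list, against 17.8% and 49.6% of all genes, at 0.0776 summits per kb and a median length of 3830 bp. Both of them were also among the 5000 highest of both replicates, and 1 (0.962%) was among the 1000 highest pooled peaks, where the peptide genes also had 1 (0.714%). The 2 were frpr-13 (rank 606, with 1165 and 513 in the replicates) and gnrr-2 (rank 1159), the second named after its value was seen. The frpr-13 summit lay 327 bp upstream of its start and also in the window of the histone gene his-18. That of gnrr-2 lay 345 bp beyond its end and also in the window of nxf-1. Of 10 further genes, mostly of secreted peptides outside the name prefixes, 0 were among the 5000 highest and 3 (30.0%) had a pooled summit. These were ntc-1, the gene of the vasopressin-like peptide nematocin (rank 5796), mip-1 (rank 12730), and daf-28, an insulin-like gene (rank 27506), all named after their values were seen. Of the genes listed, mip-1 and sng-1 are probably not peptide precursors, so the share is not one of peptide genes alone.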

How the data were processed

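AMA-1 peak lists of 2 biological replicates of late embryos were used, all on build ce11. Per the notes deposited beside the peaks, the authors made each replicate's relaxed list from its alignments and 1 further file, the pooled list from both alignments, and the IDR list from these 3. Sources used here do not name the aligner, peak caller, versions or IDR threshold, nor a read count, and depth is unknown. The deposited value per peak is a score with no stated scale, and it was used to rank peaks within a list. The summit is the other deposited column used, an offset in the peak. Each value belongs to 1 list, and scores of different lists were not set against each other except in the replicate correlation.

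Genes, parts and small RNA genes came from Ensembl release 115 of the same assembly, and proteins were translated from its coding sequences. Counts, medians and exact Clopper-Pearson intervals (95%) were computed with Python 3.11.15, NumPy 2.4.6 and SciPy 1.17.1. The genes and the pathway lists were chosen with earlier results of these data known. With 1 group and peak lists alone, no test was made, and each count stands beside that over all 19973 protein-coding genes. Window counting was checked on simulated data. Genes were named by rule: those at IDR peaks, the 20 highest pooled, the 5 highest per family and replicate, and the first 3 per family without a summit. In the pathway lists, those among the 1000 highest pooled peaks were named. Alternatives changed the rank limit, the window, the list, and how shared summits and small RNA genes were treated. Gene length was examined after seeing the data. The ce10 lists were not used here.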

Additional observations from a re-analysis of the deposited data

How the results depend on the processing

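The share of peptide genes was below that of all protein-coding genes under each of the 25 settings tried, at 0 to 0.793 times that share, and 14 of the 25 gave counts within 1.5 times the reported one. The 12 genes among the 5000 highest pooled peaks became 1 with the 1000 highest, 21 with the 10000 highest and 7 with the gene body alone. Leaving out a replicate gave 10 to 11 genes. Replicate 1 alone kept 10 of the 12 and replicate 2 alone 4. The 1 gene in the IDR list became 0 with the gene body alone or the nearest start alone (all genes 1.13% and 1.40%). With 1000 bp on either side it became 2, nlp-4 and ins-13 (1.43% against 2.75%). The 3 genes high in both replicates became 1 with the 1000 highest (0.714% against 1.93%). They became 6 with the 10000 highest (4.29% against 17.8%) and 6 with 1000 bp (4.29% against 11.2%). The 52 genes with any pooled summit became 34 with the gene body alone (24.3% against 40.3%). The 2 genes with a summit near the start became 1 within 100 bp (0.714% against 2.22%). Replicate 2 alone gave 2 others, nlp-56 and nlp-46 (1.43% against 4.52%). The cause of these shifts was not tested. No paired analysis was possible because there is 1 group. Genes low in the lists cannot be told from unbound ones, since depth is unknown.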
